A study of Mus musculus with 12 samples.

Results

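The comparison described here set the 2 libraries labelled 7d_WT against the 2 libraries labelled 14d_STING-KO, 4 of the 12 mouse libraries of the series, over all genes. The pair was chosen with measured values of these data known, as groups taken to have low immune transcripts and different neuronal ones. Values between them are therefore a description and carry no test. The 7d_WT mice were wild type and were taken 7 days after ischemic stroke. The 14d_STING-KO mice carried a CRISPR-Cas9 deficiency of Sting (Tmem173 in the annotation) and were taken 14 days after ischemic stroke. Both groups had the C57BL/6J strain background, the stroke and the labelled tissue, striatum, in common. Genotype and time both differ between them and cannot be told apart. The other 8 libraries were 7d_cGAS-KO, 7d_STING-KO, 14d_WT and 14d_cGAS-KO, 2 of each. No uninjured group and no age were given in the labels, which also do not say whether the 2 libraries of a group came from separate mice, so p-values given further on measure only the spread between libraries.

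The striatum is the input nucleus of the basal ganglia, and nearly all of its neurons are GABAergic projection neurons. Direct-pathway neurons carry the dopamine receptor Drd1 with the peptides substance P (Tac1) and dynorphin (Pdyn), and indirect-pathway neurons carry Drd2 and the adenosine receptor Adora2a with enkephalin (Penk). Glutamatergic neurons, marked by the vesicular glutamate transporters Slc17a7 in cortex and hippocampus and Slc17a6 in thalamus, send axons into the striatum, but their cell bodies lie in the neighbouring tissue.

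Levels are CPM, counts scaled to a common library total after normalisation, and differences are log2 changes of 14d_STING-KO minus 7d_WT ± SE from the edgeR fit. The 4 libraries held 15956242 to 20128376 counts, and 3 counts, the floor used for a count of 0, came to 0.153 to 0.195 CPM in them, for counting error only. The 7d_WT libraries were the closest pair of the 6 groups, with a chi-square per degree of freedom of 7.75 between them, and the 14d_STING-KO libraries were the widest, at 48.5. Of 12048 genes with an average log2 CPM of at least 3, 118 differed by more than 1 on the log2 scale between the 7d_WT libraries and 890 between the 14d_STING-KO libraries. In 14d_STING-KO the 6 genes with the largest gap between libraries included the microglial protease inhibitor Cst7, at 1.74 and 25.9 CPM, the lymphocyte inhibitory receptor Lag3, at 5.64 and 51.4 CPM, and the elastic-fibre protein Emilin1, at 0.360 and 4.82 CPM. The others were Csf2rb2, a beta chain of the interleukin-3 receptor, at 0.420 and 4.82 CPM, and 2 predicted transcripts, Gm23935 at 0.360 and 11.7 CPM and Gm37795 at 0.120 and 1.89 CPM. All 6 were higher in replicate 2. In 7d_WT the 6 were the stress factor Atf3 (1.35 and 0.102 CPM), the forebrain transcription factor Six3 (12.003 and 1.69 CPM), the MHC class II chain H2-Aa (2.58 and 0.358 CPM), the integrin Itgax (1.07 and 0.102 CPM), the lectin Lgals3 (1.91 and 0.256 CPM) and the long noncoding RNA Gm42047 (0.954 and 5.93 CPM). All but Gm42047 were higher in replicate 1. Immune and glial list counts are for this reason given with and without replicate 2.

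The gene named by the label did not separate the 2 groups. In the series it followed the STING-KO label at day 14 and went against it at day 7. Tmem173 (ENSMUSG00000024349; mm10, chromosome 18, 35733679 to 35740554, minus strand), which encodes the adaptor STING, stood at 2.80 and 2.71 CPM in 7d_WT and at 2.40 and 5.21 CPM in 14d_STING-KO, a difference of 0.45 ± 0.32 with overlapping libraries. In the other 8 libraries it ran from 18.1 to 30.3 CPM, so both wild-type libraries of this pair lay below the 2 libraries labelled 7d_STING-KO, at 20.9 and 23.8 CPM. At day 14 both 14d_STING-KO libraries lay below 14d_WT, at 22.3 and 20.8 CPM. Cgas (ENSMUSG00000032344; chromosome 9, 78430526 to 78443237, minus strand), the DNA sensor upstream of STING, stood at 3.25 and 2.97 CPM in 7d_WT and 4.499 and 3.58 CPM in 14d_STING-KO (0.38 ± 0.34), against 4.09 to 12.6 CPM in the other 8. Among those 8 it was lowest under the cGAS-KO label, at 5.55 and 5.66 CPM at day 7 and 4.09 and 6.15 CPM at day 14. The 7d_STING-KO libraries stood at 11.2 and 12.6 CPM and the 14d_WT libraries at 12.6 and 7.68 CPM. A gene-level count cannot show a small deletion that leaves the transcript in place, so WT and STING-KO stand here for the libraries labelled so, in every direction given.

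Across 19822 tested genes the edgeR quasi-likelihood fit put 8051 (40.6%) past an adjusted p of 0.05 between the 2 groups, 4566 higher in 14d_STING-KO (23.0%) and 3485 lower (17.6%). Nothing is read from these shares, because the groups were chosen for their difference. Without 7d_WT replicate 1 the count was 5157 and without 7d_WT replicate 2 it was 4929. The median change over all genes was 0.11 on the log2 scale, and it was 0.00 when the mitochondrially encoded genes were left out of the scaling, so small changes are to be read relative to it. Changes of at least 1 on the log2 scale were held by 2322 of the higher and 2207 of the lower genes, and changes of at least 4 by 145 and 207. Read against the other 8 libraries, 25.3% of the higher genes had only 7d_WT outside their range and 35.1% only 14d_STING-KO. Among the lower genes the order was turned: 40.0% had only 7d_WT outside and 23.9% only 14d_STING-KO. The 2 groups lay outside on opposite sides for 5.85% of the higher and 7.86% of the lower genes. They lay outside on the same side for 20.4% and 9.93%. Over all tested genes, both groups were below all other 8 libraries for 2541 (12.8%) and above all of them for 1864 (9.4%).

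**Figure D1:**
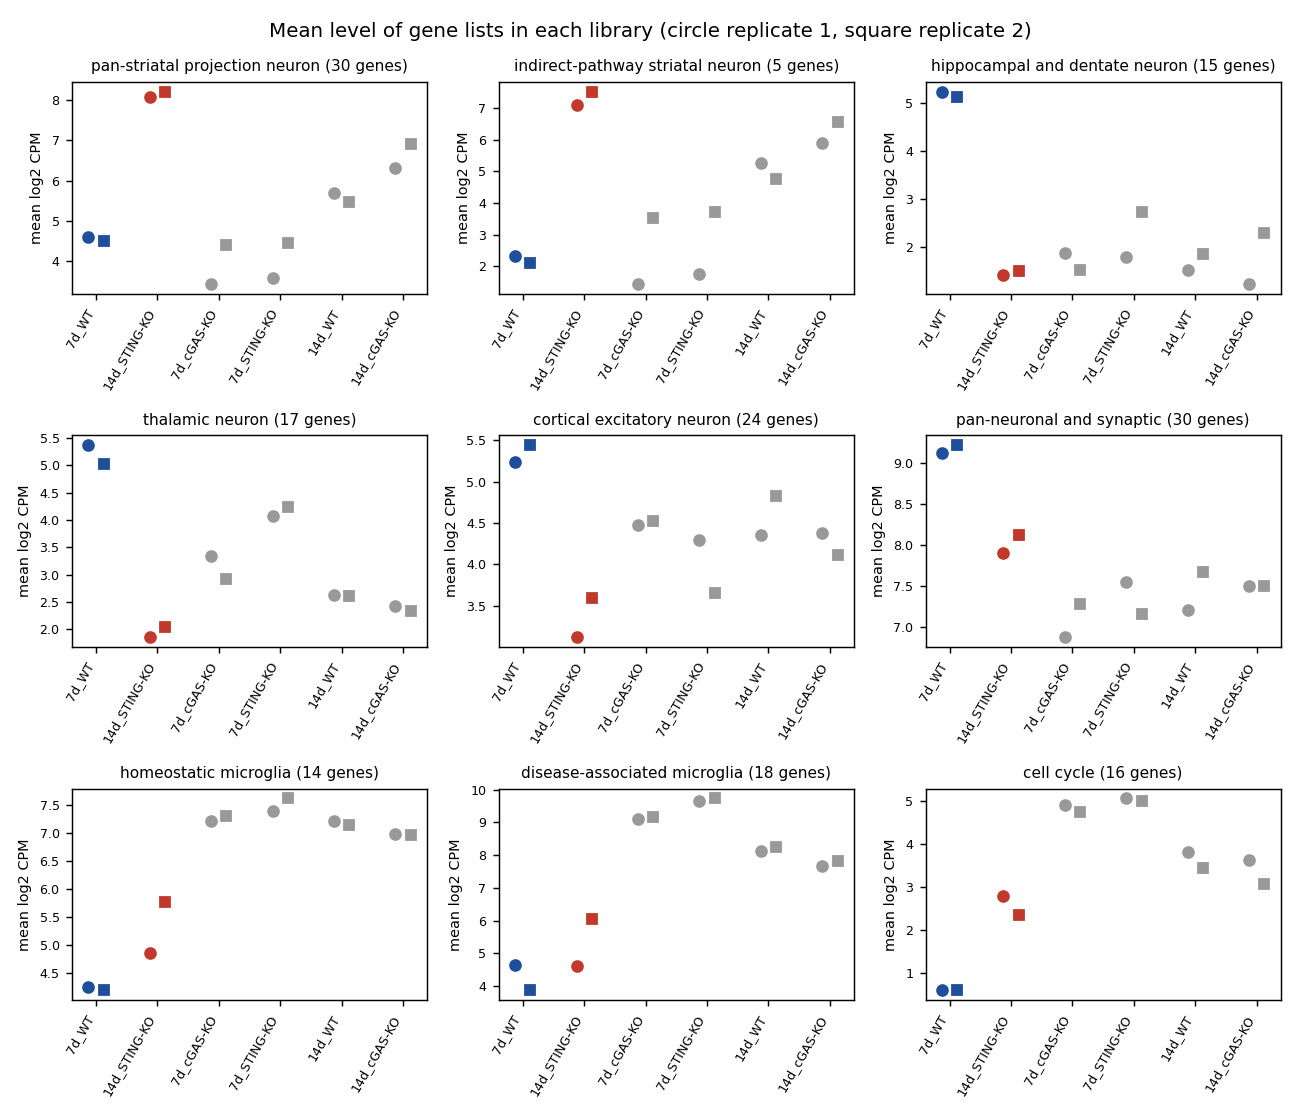
Mean log2 CPM of the tested members of 9 gene lists (y axis) in each of the 12 libraries, grouped on the x axis by label, with 7d_WT in blue, 14d_STING-KO in red and the other groups in grey. The pan-striatal list stood at 8.07 and 8.20 in 14d_STING-KO against 4.59 and 4.51 in 7d_WT, the hippocampal list at 1.44 and 1.51 against 5.22 and 5.11, and both microglial lists lie below the grey points in all 4 libraries.

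Genes of striatal projection neurons were higher in 14d_STING-KO. All 30 tested members of the pan-striatal list were higher and past the threshold, with a median change of 3.34 and a range from 1.38 to 8.38. So were 8 of 9 direct-pathway genes (median 3.75) and 5 of 5 indirect-pathway genes (median 5.74), against 23.0% of all genes and a median of 0.11. Drd1 (ENSMUSG00000021478; chromosome 13, 54051183 to 54055705, minus strand), the dopamine receptor of the direct pathway, stood at 4.77 and 4.45 CPM in 7d_WT and 376 and 325 CPM in 14d_STING-KO. Its levels elsewhere were 2.17 and 11.2 in 7d_cGAS-KO, 1.84 and 12.9 in 7d_STING-KO, 42.0 and 33.9 in 14d_WT and 61.1 and 89.1 CPM in 14d_cGAS-KO. The 14d_STING-KO libraries were the highest of all 12, and the 7d_WT libraries lay among the 7-day ones; the change was 6.25 ± 0.77, or 76.0-fold. Drd2 (chromosome 9, 49340627 to 49408177, plus strand), the receptor of the indirect pathway, stood at 4.82 and 3.27 CPM against 200.2 and 231 CPM (5.74 ± 0.79), with 0.845 to 107 CPM in the other 8 libraries. In bulk tissue, fewer cells of a type and less RNA per cell cannot be told apart.

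Peptides of the same neurons were also higher in 14d_STING-KO. Tac1, the substance P precursor, stood at 5.66 and 5.57 CPM in 7d_WT and 396 and 235 CPM in 14d_STING-KO (5.81 ± 0.60). Pdyn, the dynorphin precursor, stood at 14.1 and 14.0 against 218 and 160.0 CPM (3.75 ± 0.41), and Penk, the enkephalin precursor, at 24.1 and 21.9 against 781 and 832 CPM (5.13 ± 0.66). The groups did not overlap for any of the 3, as for 70.9% of all tested genes (39.3% higher and 31.7% lower), and in each of them both 14d_STING-KO libraries exceeded the highest of the other 8, at 102, 81.1 and 441 CPM. Adora2a, the adenosine receptor of the indirect pathway, stood at 4.21 and 2.15 against 183 and 319.7 CPM (6.31 ± 0.999), and the orphan receptor Gpr6 at 0.617 and 0.716 against 65.7 and 93.6 CPM (6.88 ± 0.64). Chrm4, the muscarinic receptor of direct-pathway neurons, was higher by 2.47 ± 0.35, from 7.63 and 12.7 to 55.3 and 57.6 CPM. Eya1 was the 1 direct-pathway member that was not called, at 14.98 and 13.3 against 8.34 and 7.10 CPM (-0.87 ± 0.34).

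Genes used by both pathways had the same order. Ppp1r1b, which encodes the dopamine-regulated phosphatase inhibitor DARPP-32, stood at 49.97 and 39.0 against 391 and 668 CPM (3.57 ± 0.48), and 1 of the other 8 libraries, at 506 CPM, lay between the 14d_STING-KO values. The phosphodiesterase Pde10a, which degrades cyclic nucleotides downstream of the dopamine receptors, stood at 84.9 and 93.3 against 1687 and 1861 CPM (4.32 ± 0.58). The retinoid receptor Rxrg stood at 2.52 and 2.86 against 143 and 119 CPM (5.60 ± 0.27), and the transcription factors Foxp1 and Foxp2 changed by 2.77 ± 0.20 and 3.35 ± 0.18. The largest change among the genes named here with a count in both groups was in Sh3rf2, a RING-finger scaffold protein, at 0.280 and 0.102 against 69.7 and 59.3 CPM (8.38 ± 0.66). Serpina9, a serine protease inhibitor, stood at 0.617 and 0.0511 against 37.7 and 39.8 CPM (6.88 ± 0.77). Both 14d_STING-KO libraries were above all other libraries of the series in Pde10a, Rxrg, Sh3rf2 and Serpina9.

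**Figure D2:**
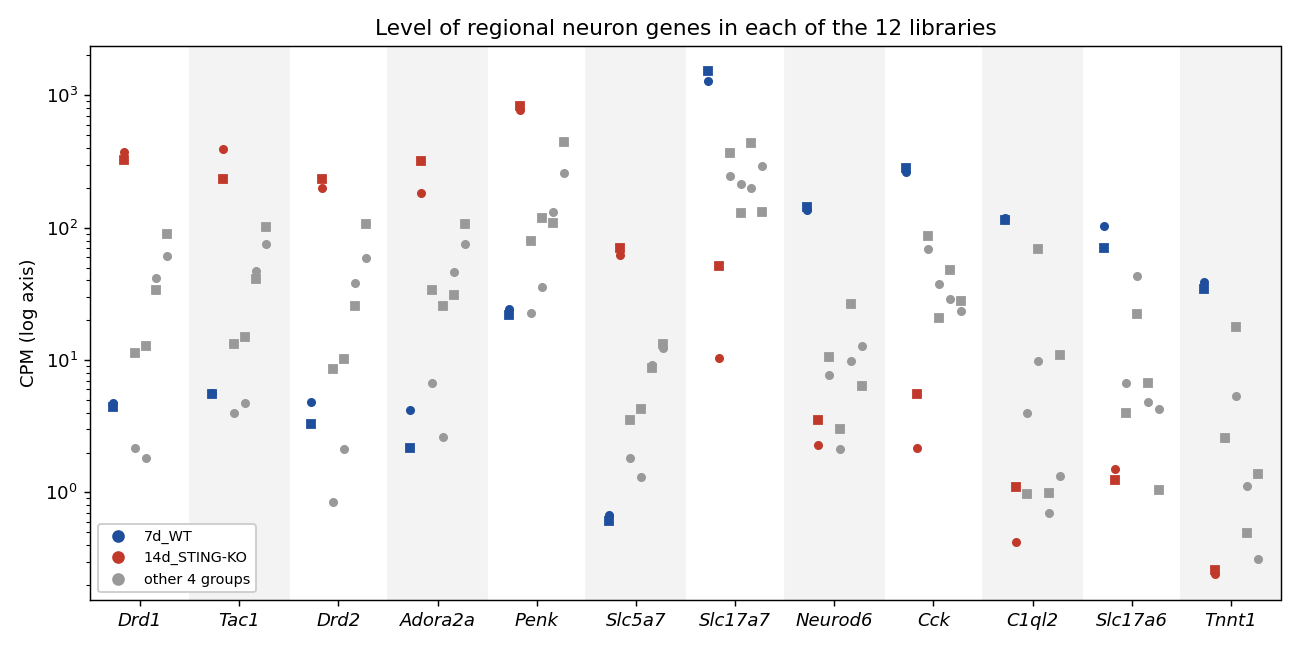
CPM on a log axis of 12 regional neuron genes (x axis) in each of the 12 libraries, with 7d_WT in blue, 14d_STING-KO in red, the other 4 groups in grey, circles for replicate 1 and squares for replicate 2. Red points stand at the top and blue points near the bottom for the striatal genes Drd1 to Slc5a7, and blue points stand at the top from Slc17a7 to Tnnt1, where Slc17a7 runs from 10.3 CPM in 14d_STING-KO to 1524 CPM in 7d_WT.

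Striatal interneuron genes split by type. Cholinergic genes were higher in 14d_STING-KO: the choline transporter Slc5a7 stood at 0.673 and 0.614 against 62.0 and 70.5 CPM (6.67 ± 0.46), and Chat, which makes acetylcholine, at 0.280 and 0.358 against 16.4 and 26.2 CPM (6.02 ± 0.68). Lhx8, a transcription factor of cholinergic neurons, had no count in either 7d_WT library. At 10.4 and 7.36 CPM in 14d_STING-KO it was at least 55.1-fold higher, taking 3 counts per library as the floor. Pvalb, the calcium buffer of fast-spiking interneurons, was lower, from 57.9 and 29.6 to 3.54 and 2.08 CPM (-3.95 ± 0.49), and so was Npy, from 26.6 and 28.9 to 14.998 and 16.5 CPM (-0.82 ± 0.29). In all, 7 of 12 members were called higher and 2 lower, and 7 and 1 without 7d_WT replicate 1, 7d_WT replicate 2 or 14d_STING-KO replicate 1. The basal forebrain regulator Nkx2-1, listed with the regional transcription factors, stood at 0.224 and 0.562 against 6.96 and 10.1 CPM (4.38 ± 0.86).

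Upstream sequences of 2 genes high in 14d_STING-KO and 2 high in 7d_WT are shown to let the opposed groups be compared. Each is the 250 bases before the annotated start, 5′ to 3′ on the gene's strand, from RefSeq (GRCm38.p6). Capitals mark 3 motifs searched on both strands: the cAMP-response half-site TGACG (reverse complement CGTCA) and the E-boxes CAGCTG and CAGATG (reverse complement CATCTG). The windows are Tac1 at chr6:7554811-7555060 on the plus strand, Drd1 at chr13:54055659-54055908 on the minus strand, Slc17a7 at chr7:45163671-45163920 on the plus strand and Neurod6 at chr6:55681264-55681513 on the minus strand. Drd1 has 2 starts in the table, and the first is shown.
Tac1: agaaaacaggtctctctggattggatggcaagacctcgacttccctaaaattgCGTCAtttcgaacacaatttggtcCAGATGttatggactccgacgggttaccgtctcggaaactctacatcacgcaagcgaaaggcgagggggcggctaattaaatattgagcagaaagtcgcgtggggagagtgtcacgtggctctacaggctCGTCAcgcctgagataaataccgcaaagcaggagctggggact
Drd1: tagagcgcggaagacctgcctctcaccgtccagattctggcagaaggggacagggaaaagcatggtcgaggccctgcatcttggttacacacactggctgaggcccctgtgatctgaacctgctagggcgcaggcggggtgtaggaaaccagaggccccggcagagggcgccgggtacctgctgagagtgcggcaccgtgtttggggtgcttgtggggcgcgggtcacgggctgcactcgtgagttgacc
Slc17a7: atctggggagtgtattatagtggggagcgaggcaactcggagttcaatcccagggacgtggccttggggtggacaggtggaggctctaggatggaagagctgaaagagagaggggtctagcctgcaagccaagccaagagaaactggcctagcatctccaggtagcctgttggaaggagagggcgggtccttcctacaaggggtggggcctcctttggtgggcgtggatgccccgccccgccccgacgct
Neurod6: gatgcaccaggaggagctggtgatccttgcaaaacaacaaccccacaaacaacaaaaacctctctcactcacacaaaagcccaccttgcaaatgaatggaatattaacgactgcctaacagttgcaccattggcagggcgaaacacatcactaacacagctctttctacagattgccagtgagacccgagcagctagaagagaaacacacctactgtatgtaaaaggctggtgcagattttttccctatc
The Tac1 window held 2 TGACG half-sites and 1 CAGATG. None of the 3 motifs was in the windows of Drd1, Slc17a7 and Neurod6. Of 32851 RefSeq windows of the same length, 5836 held TGACG (17.8%), 4271 held CAGCTG and 4745 held CAGATG (14.4%) on either strand. A match is a description of these letters only.

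Cortical, hippocampal and thalamic neuron genes were higher in 7d_WT. Of 24 cortical excitatory genes 13 were called lower and 5 higher in 14d_STING-KO (median -1.22). Slc17a7 (ENSMUSG00000070570; chromosome 7, 45163949 to 45176142, plus strand), the vesicular glutamate transporter of cortex and hippocampus, stood at 1272 and 1524 CPM in 7d_WT and 10.3 and 51.1 CPM in 14d_STING-KO (-5.51 ± 0.73). Its other levels were 248 and 366 in 7d_cGAS-KO, 213 and 128 in 7d_STING-KO, 199 and 439 in 14d_WT and 294 and 131 CPM in 14d_cGAS-KO. All other 8 libraries lay between the 2 groups. Neurod2 and Neurod6, differentiation factors of cortical pyramidal neurons, had the same order. Neurod2 stood at 187 and 223 CPM against 0.900 and 4.23 CPM (-6.34 ± 0.53), and Neurod6 at 136 and 142 CPM against 2.28 and 3.52 CPM (-5.59 ± 0.50). Cck, the cholecystokinin precursor, was lower, from 263 and 284 to 2.16 and 5.53 CPM (-6.16 ± 0.44). The zinc transporter of glutamatergic vesicles, Slc30a3, changed by -5.55 ± 0.39, the cortical homeobox gene Emx1 by -5.38 ± 0.50 and the neurite-growth gene Nrn1 by -5.77 ± 0.37. Against that direction, Tle4, a corepressor of deep-layer neurons, stood at 52.2 and 58.4 against 161 and 140.2 CPM (1.44 ± 0.15), and Rspo1, a Wnt agonist, at 1.96 and 2.45 against 7.02 and 7.55 CPM (1.71 ± 0.43). For the cortical list the counts higher and lower became 2 and 11 without 7d_WT replicate 1, 3 and 12 without 7d_WT replicate 2 and 3 and 11 without 14d_STING-KO replicate 1.

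Of 15 hippocampal and dentate genes, 13 were called lower in 14d_STING-KO and none higher (median -3.11). C1ql2, a synaptic organiser of dentate granule cells, stood at 118 and 114 CPM in 7d_WT against 0.420 and 1.11 CPM (-7.26 ± 1.20), and at most 68.8 CPM elsewhere. The desmosomal protein Dsp stood at 62.4 and 56.4 against 1.32 and 1.04 CPM (-5.64 ± 0.58) and Lct, which encodes lactase, at 47.5 and 37.0 against 0.180 and 0.0651 CPM (-8.33 ± 1.44). The granule-cell factor Neurod1 stood at 18.9 and 21.0 against 0.360 and 0.521 CPM (-5.49 ± 0.40), and Iyd, an iodotyrosine deiodinase, at 7.29 and 4.76 against 0.360 and 0.0651 CPM (-4.74 ± 0.51). Both 7d_WT libraries exceeded every other library of the series for each of these 5 genes.

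Of 17 thalamic genes, 16 were called lower and none higher (median -2.94). Slc17a6 (chromosome 7, 51622006 to 51671119, plus strand), the vesicular glutamate transporter of thalamus, stood at 103 and 69.6 CPM in 7d_WT and 1.4998 and 1.24 CPM in 14d_STING-KO (-5.97 ± 0.59). Tnnt1, a troponin gene enriched in thalamus, stood at 38.6 and 34.6 against 0.240 and 0.260 CPM (-7.16 ± 0.75), Prkcd, a protein kinase C, at 246 and 160.2 against 19.1 and 22.5 CPM (-3.29 ± 0.26), and the Wnt effector Tcf7l2 at 104 and 66.0 against 11.3 and 10.8 CPM (-2.94 ± 0.27). The homeobox gene Shox2, at 30.4 and 23.6 CPM in 7d_WT, had no count in either 14d_STING-KO library and was at least 144-fold lower there. Taking it at that bound left the list's median at -2.94. Gata3 and Irx2, regulators of midbrain and thalamic territories, were also lower. Gata3 stood at 3.37 and 1.64 CPM against 0.0600 and 0 CPM (-6.03 ± 1.12), and Irx2 at 6.51 and 1.53 CPM against 0 and 0.195 CPM (-5.30 ± 1.06). Hypothalamic genes were low in all 4 libraries, with 5 of 12 members tested and none called. Pomc, the melanocortin precursor, stood at 1.74 and 1.43 against 0.720 and 0.521 CPM. Of 7 tested midbrain monoamine genes 3 were called higher and 2 lower. Th, which makes dopamine, was higher, from 0.897 and 0.971 to 2.46 and 6.77 CPM (2.28 ± 0.74). The dopamine transporter Slc6a3 was lower, from 0.505 and 1.74 to 0.120 and 0.0651 CPM (-3.52 ± 0.90). For this list the counts higher and lower became 0 and 1 without 7d_WT replicate 1, 0 and 1 without 7d_WT replicate 2 and 1 and 1 without 14d_STING-KO replicate 1.

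The label striatum was checked against these markers: Drd1 and Drd2 exceeded Slc17a7 in both 14d_STING-KO libraries, and Slc17a7 exceeded them in both 7d_WT libraries, against the label. Per kilobase of exon, the scale on which genes can be compared, Slc17a7 stood at 236 and 283 CPM per kb in 7d_WT against 1.31 and 1.23 for Drd1 and 1.89 and 1.28 for Drd2. In 14d_STING-KO the order was turned, with 1.91 and 9.48 for Slc17a7, 104 and 89.6 for Drd1 and 78.6 and 90.9 for Drd2. The order of 7d_WT was not particular to it: in the other 8 libraries Slc17a7 also exceeded Drd1 and Drd2 by CPM. Per kilobase it did so in all of them except 14d_cGAS-KO replicate 2, at 24.4 against 24.6 for Drd1 and 42.2 for Drd2. Penk was the highest of 12 genes compared on this scale in both 14d_STING-KO libraries, at 478 and 509. The genes of GABA synthesis and transport were detected in both groups. Gad2, a GABA-making enzyme, stood at 34.0 and 31.5 CPM per kb in 7d_WT and 126 and 109.9 in 14d_STING-KO, and Slc32a1, the vesicular GABA transporter, at 30.8 and 29.7 against 66.3 and 86.5. Their changes were 1.85 ± 0.30 and 1.34 ± 0.33, and that of Gad1 was 1.02 ± 0.19. Of the 5 GABA genes 4 were called higher and none lower. The part of these regional differences in the other results was not tested.

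Genes listed as pan-neuronal and synaptic were mostly higher in 7d_WT, and how far they differ between brain regions was not tested. Of 30 pan-neuronal and synaptic genes 23 were called lower in 14d_STING-KO and none higher (median -1.05). Rbfox3, the nuclear antigen NeuN, stood at 283 and 304 CPM in 7d_WT against 53.1 and 133 CPM (-1.66 ± 0.35), and the synaptic vesicle protein Syp at 773 and 856 against 123 and 162 CPM (-2.52 ± 0.23). Olfm1, a secreted neuronal glycoprotein, was lower, from 998 and 1126 to 123 and 142 CPM, and the surface glycoprotein Thy1 changed by -1.76 ± 0.17. For this list the counts higher and lower became 0 and 14 without 14d_STING-KO replicate 1 and 1 and 20 without 14d_STING-KO replicate 2. The dendritic protein Map2, at 827 and 1016 against 1224 and 963 CPM (0.25 ± 0.29), and the growth-cone protein Gap43, at 132 and 134 against 236 and 173 CPM (0.62 ± 0.24), were not called. Both groups stood above the other 8 libraries in the mean of this list, at 9.13 and 9.22 log2 CPM in 7d_WT and 7.91 and 8.13 in 14d_STING-KO against 6.88 to 7.68. Neuroblast and subventricular zone genes had the opposite order, with 8 of 12 called higher (median 1.54). Their mean was 2.62 and 2.63 log2 CPM in 7d_WT, with 2.01 to 2.65 in the other 7-day libraries. In 14d_STING-KO it was 4.06 and 4.15, below the 4.59 to 5.03 of the other 14-day libraries. Of the 12, 10 were also called higher in 14d_cGAS-KO against 7d_cGAS-KO, and 10 in 14d_WT against 7d_STING-KO. Dcx, a microtubule protein of migrating neuroblasts, stood at 24.3 and 22.8 against 68.8 and 60.8 CPM (1.46 ± 0.20), Dlx6, a homeobox factor of GABAergic neurons, at 3.14 and 3.43 against 22.9 and 26.0 CPM (2.89 ± 0.37) and Cd24a at 7.01 and 3.94 against 44.8 and 26.2 CPM (2.71 ± 0.36). Of its members, Sp9 also belongs to the indirect-pathway list.

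**Figure D3:**
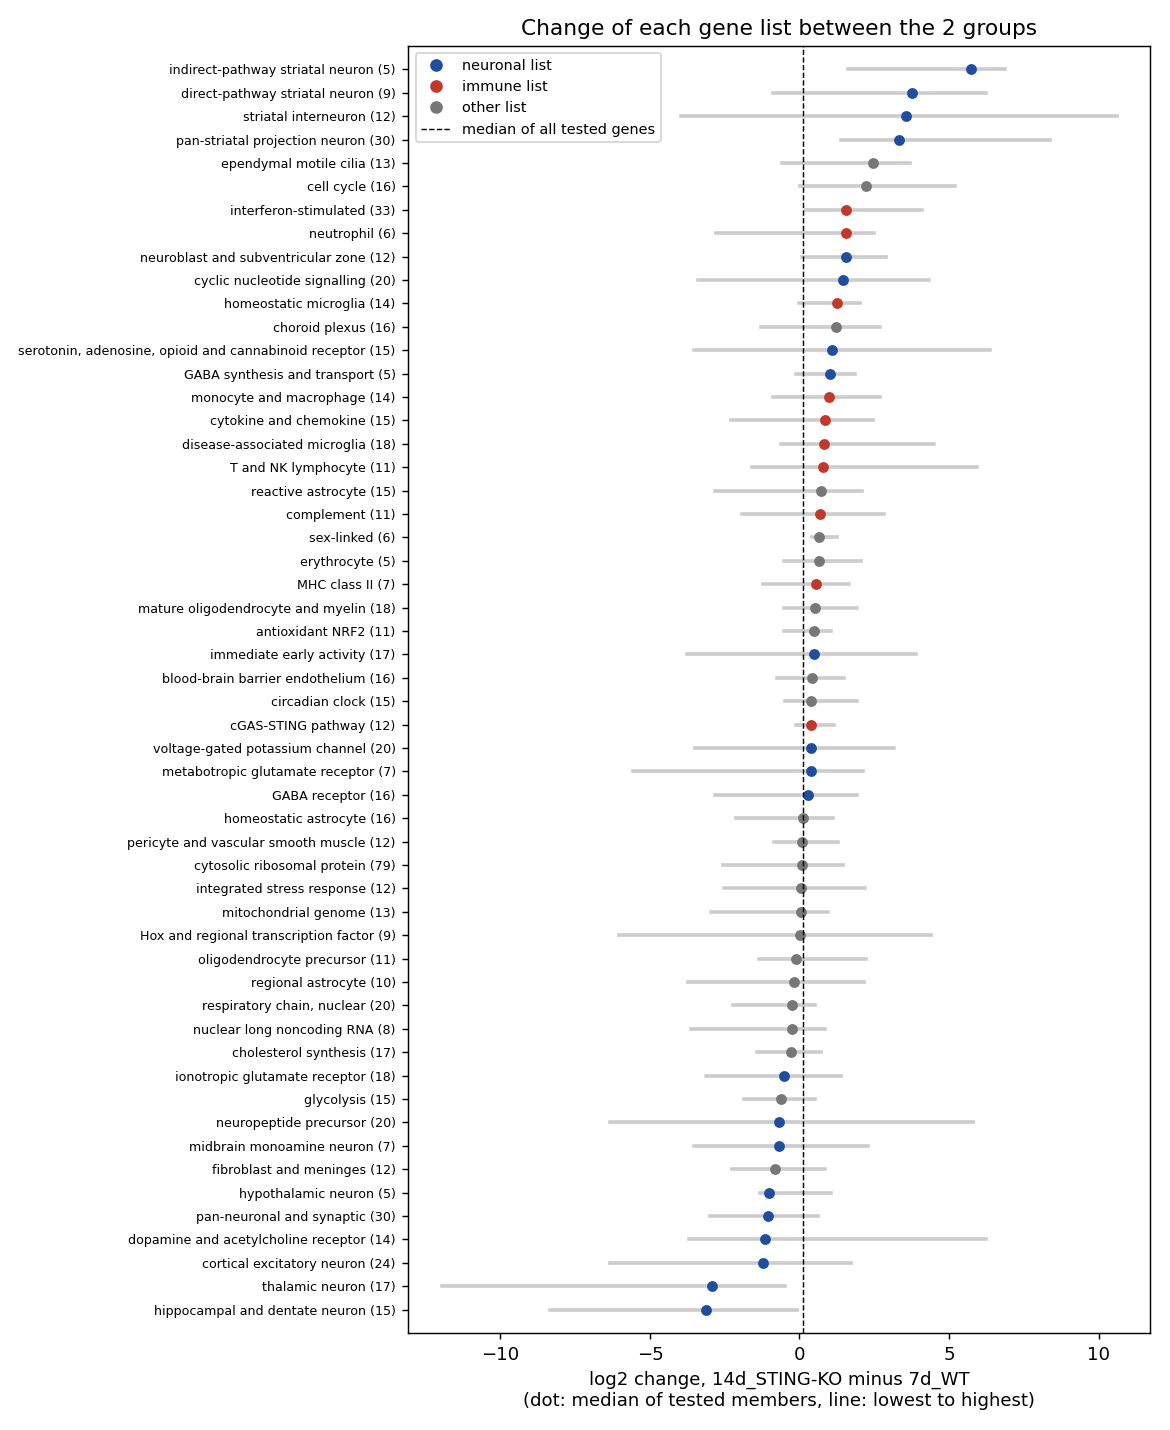
Log2 change of 14d_STING-KO minus 7d_WT (x axis) for the 54 gene lists, each named with its number of tested members (y axis). Dots are medians and lines run from the lowest to the highest member, and the dashed line is the all-gene median of 0.11. The striatal lists lie at the top and the hippocampal and thalamic lists at the bottom; the ends of the thalamic and interneuron lines come from genes with no count in 1 group and are fitted values, not bounds.

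Receptor families held calls in both directions, to be read beside the shares of all genes (23.0% higher and 17.6% lower). Of 14 dopamine and acetylcholine receptors 4 were called higher in 14d_STING-KO and 8 lower. Drd1, Drd2 and Chrm4 are given above; the muscarinic receptor Chrm3 was lower, from 43.2 and 42.4 to 8.94 and 8.92 CPM (-2.26 ± 0.39), as was the nicotinic subunit Chrna5, from 2.86 and 3.73 to 0.180 and 0.326 CPM (-3.69 ± 0.68). Among 15 serotonin, adenosine, opioid and cannabinoid receptors 9 were called higher and 4 lower. Htr1b, a presynaptic serotonin receptor, stood at 7.80 and 6.65 against 133 and 94.6 CPM (3.98 ± 0.33) and Htr1d at 0.112 and 0.153 against 10.1 and 13.2 CPM (6.38 ± 0.54). Htr1a, the somatodendritic serotonin receptor, had the reverse order, at 21.5 and 34.3 against 2.16 and 2.73 CPM (-3.51 ± 0.41), and so did the channel subunit Htr3a (-2.54 ± 0.45). Adora1, the inhibitory adenosine receptor, differed in sign from Adora2a and stood at 219 and 241 CPM in 7d_WT against 65.2 and 80.9 CPM (-1.65 ± 0.20). For this last family the counts higher and lower became 5 and 4 without 7d_WT replicate 1.

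**Figure D4:**
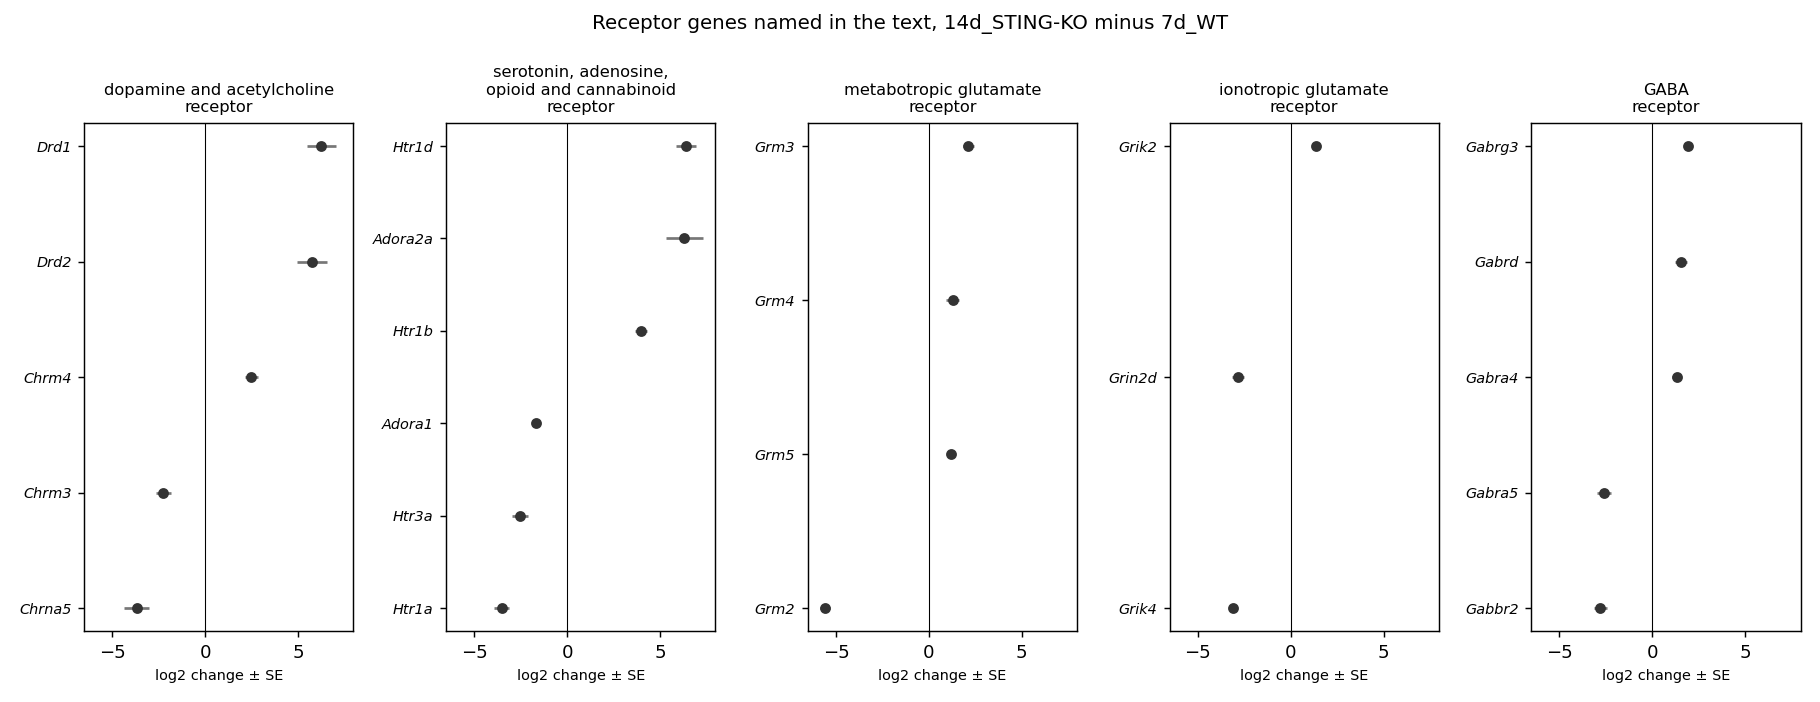
Log2 change ± SE of 14d_STING-KO minus 7d_WT (x axis) for receptor genes named in the text (y axis), in 5 lists, shown as a description. Each panel holds genes on both sides of 0, from -5.58 for Grm2 to 6.38 for Htr1d.

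Of 7 metabotropic glutamate receptors 3 were called higher and 1 lower. Grm2, a presynaptic inhibitory glutamate receptor, stood at 66.7 and 68.5 CPM in 7d_WT and 1.44 and 1.37 CPM in 14d_STING-KO (-5.58 ± 0.26), while Grm3, Grm4 and Grm5 were higher by 2.13 ± 0.28, 1.28 ± 0.34 and 1.21 ± 0.18. Both 14d_STING-KO libraries lay below, and both 7d_WT libraries above, all other libraries for Grm2, whose range elsewhere was 5.38 to 14.0 CPM. Among 18 ionotropic receptor genes 8 were called lower and 3 higher. The kainate subunit Grik4, a gene of hippocampal CA3 neurons, stood at 69.1 and 74.7 against 7.26 and 9.38 CPM (-3.11 ± 0.19), and the NMDA subunit Grin2d at 38.7 and 34.9 against 3.84 and 6.58 CPM (-2.83 ± 0.30). The kainate subunit Grik2 stood at 97.7 and 104 against 270.1 and 257 CPM (1.39 ± 0.21). Of 16 GABA receptor genes 5 were called higher and 4 lower, beside 23.0% and 17.6% of all genes. Gabra4 (1.30 ± 0.23), Gabrg3 (1.91 ± 0.18) and Gabrd (1.54 ± 0.31) were higher, and Gabra5 (-2.58 ± 0.38) and Gabbr2 (-2.81 ± 0.34) lower. Gabra5, the extrasynaptic subunit of hippocampal neurons, stood at 137 and 146 CPM in 7d_WT and 22.9 and 24.4 CPM in 14d_STING-KO. For the ionotropic receptors the counts higher and lower became 3 and 5 without 7d_WT replicate 2. For the GABA receptors the counts higher and lower became 3 and 3 without 7d_WT replicate 1.

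Downstream of the receptors, 12 of 20 cyclic nucleotide genes were called higher and 6 lower, beside 23.0% and 17.6% of all genes. This list overlaps with the pan-striatal list, to which Pde7b also belongs, so it is not a separate result. Pde7b, a cAMP phosphodiesterase, stood at 30.2 and 26.1 against 391 and 358 CPM (3.73 ± 0.29), Pde1c, which is activated by calmodulin, at 8.25 and 7.06 against 65.8 and 51.8 CPM (2.94 ± 0.23) and the protein kinase A subunit Prkar2b at 39.8 and 37.6 against 259.7 and 216 CPM (2.62 ± 0.14). The calcium-stimulated adenylate cyclases Adcy1 and Adcy8 were lower, from 1196 and 1110.0 to 168 and 248 CPM (-2.47 ± 0.38) and from 31.6 and 26.4 to 2.9996 and 2.54 CPM (-3.38 ± 0.25). Of 20 voltage-gated potassium channel genes 6 were called higher and 5 lower, beside 23.0% and 17.6% of all genes. Kcna4 and Kcna5 were higher by 1.88 ± 0.23 and 3.16 ± 0.26, and the fast channel Kcnc2 lower, from 152 and 164 to 17.3 and 14.3 CPM (-3.32 ± 0.46). Neuropeptide precursors had 3 of 20 called higher, the striatal Penk, Tac1 and Pdyn, and 7 lower. Of 17 immediate early genes 4 were called higher and 3 lower, shares near those of all genes (23.0% and 17.6%). Egr2 stood at 1.96 and 2.76 against 49.6 and 21.0 CPM (3.89 ± 0.52), and Egr1 at 86.7 and 119.5 against 456 and 263 CPM (1.80 ± 0.39). For that list the counts higher and lower became 2 and 3 without 7d_WT replicate 1, 1 and 3 without 14d_STING-KO replicate 1 and 8 and 3 without 14d_STING-KO replicate 2. Bdnf, the neurotrophin that cortical neurons supply to the striatum, stood at 40.9 and 33.3 against 2.46 and 2.995 CPM (-3.77 ± 0.30) and the activity-regulated factor Jun at 108 and 131 against 17.9 and 32.1 CPM (-2.26 ± 0.24). For cyclic nucleotide genes the counts higher and lower became 12 and 3 without 7d_WT replicate 2 and 12 and 3 without 14d_STING-KO replicate 1. For the peptides the counts higher and lower became 3 and 4 without 7d_WT replicate 2 and 3 and 4 without 14d_STING-KO replicate 1. The median of the potassium channels was 0.37, and -0.23 without 14d_STING-KO replicate 2.

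Microglial transcripts were low in both groups relative to the other 8 libraries, but they were not level between the 2. Not every immune list was low by every measure. The summed level of the lymphocyte list, 32.2 and 47.1 CPM in 14d_STING-KO, had replicate 2 above the 10.497 to 44.3 CPM found elsewhere. The summed cytokine and chemokine level, 732 and 741 CPM in 7d_WT and 817 and 912 CPM in 14d_STING-KO, was not below the other 8 libraries (701 to 906 CPM). By its mean that list was below them, at 1.43 and 1.19 log2 CPM in 7d_WT and 1.34 and 2.47 in 14d_STING-KO, against 3.4 to 4.32. The mean of the monocyte list in 14d_STING-KO replicate 2, 1.13 log2 CPM, lay within the range elsewhere (1.11 to 5.29). Its summed level in 14d_STING-KO, 115 and 186 CPM, was below the 535 CPM that was lowest elsewhere. The mean of 18 disease-associated microglia genes was 4.64 and 3.86 log2 CPM in 7d_WT and 4.61 and 6.04 in 14d_STING-KO, against 7.66 to 9.74 elsewhere. Homeostatic microglia genes averaged 4.25 and 4.18 and 4.85 and 5.77 against 6.97 to 7.62. Of 14 homeostatic genes 11 were called higher in 14d_STING-KO and none lower (median 1.26), and without its replicate 2 these were 9 and 1 (median 0.68). P2ry12, the purine receptor of resting microglia, stood at 24.1 and 29.0 against 61.3 and 69.4 CPM (1.30 ± 0.17), and the lysophospholipid receptor Gpr34 at 9.37 and 9.10 against 26.6 and 48.4 CPM (2.02 ± 0.25). The groups did not overlap for either gene.

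The counts of the remaining immune lists depended on single libraries, 14d_STING-KO replicate 2 among them. Of the 18 disease-associated genes 8 were called higher and 1 lower (median 0.82), and without replicate 2 3 were higher and 4 lower (median -0.02). The phagocytic receptor Clec7a stood at 1.57 and 0.307 CPM in 7d_WT and 7.08 and 34.5 CPM in 14d_STING-KO (4.49 ± 0.77), Itgax at 1.07 and 0.102 against 3.72 and 16.4 CPM (4.13 ± 0.98) and the tetraspanin Cd9 at 33.7 and 26.6 against 89.2 and 156 CPM (2.02 ± 0.23). Replicate 2 was the higher of its group in all 3. Of 33 interferon-stimulated genes 12 were called higher and none lower (median 1.56); without replicate 2 there were 3 (median 0.66), as against 4 and 3 without 7d_WT replicate 1 and 2. Irf9, a component of the interferon response complex, stood at 12.1 and 13.3 against 29.6 and 26.8 CPM (1.15 ± 0.23) and the RNA sensor Ifih1 at 4.54 and 4.14 against 7.92 and 12.3 CPM (1.22 ± 0.32), all below the 35.6 and 14.2 CPM that were lowest elsewhere. Complement genes had 5 of 11 called higher and 1 lower, which became 2 and 2 without replicate 2 (median 0.70 and -0.22). The monocyte list had 3 of 14 higher, and 0 without replicate 2. The share of 3 of 14 was near the 23.0% of all genes called higher. Lyz2, a lysozyme of myeloid cells, stood at 16.2 and 4.55 against 23.1 and 91.5 CPM (2.48 ± 0.62), against 351 to 5181 CPM elsewhere. Without 7d_WT replicate 2, 3 disease-associated, 0 monocyte and 2 complement genes were called higher.

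The lymphocyte list was led by 1 gene in 14d_STING-KO. Summed over its 12 genes the level was 4.66 and 3.63 CPM in 7d_WT and 32.2 and 47.1 CPM in 14d_STING-KO, and the 1 called member of 11 tested was Cd4, at 0.617 and 0.511 against 29.0 and 40.6 CPM (5.93 ± 0.50). With 5.51 to 28.4 CPM elsewhere, both 14d_STING-KO libraries were the highest of all 12 for Cd4. The T cell receptor subunits Cd3e, Cd3d and Cd3g, named after their values were seen, did not exceed 0.586 CPM in any of the 4 libraries, while Cd4 stood well above them in 14d_STING-KO. The list's median was 0.79, and -1.36 without 14d_STING-KO replicate 2. Cd163, a scavenger receptor of perivascular macrophages, stood at 4.66 and 1.99 against 12.4 and 11.1 CPM (1.83 ± 0.67). The myeloid lectin Clec12a, among the 15 largest differences in that direction, stood at 0.168 and 0.0511 against 12.1 and 9.05 CPM (6.54 ± 0.77) within a range of 2.22 to 32.1 CPM elsewhere. The neutrophil list had 1 of 6 tested members called in each direction, and the MHC class II list 1 of 7 in each; neither list kept both calls without any 1 of the 4 libraries. Among cytokines 3 of 15 were called higher, near the 23.0% of all genes: Il33 (1.04 ± 0.21), Il18 (1.08 ± 0.23) and Il1a (2.47 ± 0.59). Of the 12 tested cGAS-STING pathway genes 3 were called higher (2 without 14d_STING-KO replicate 2), a share near the 23.0% of all genes. They were the kinase Ikbke (0.85 ± 0.29), the interferon receptor Ifnar1 (0.57 ± 0.12) and Enpp1, the enzyme that breaks down cGAMP (1.16 ± 0.28). For cytokines the counts higher and lower became 5 and 0 without 14d_STING-KO replicate 1 and 3 and 1 without 14d_STING-KO replicate 2. For the cGAS-STING pathway the counts higher and lower became 1 and 0 without 7d_WT replicate 2.

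Cell cycle genes were lower in 7d_WT than in 14d_STING-KO. Of 16 members 12 were called higher in 14d_STING-KO and none lower (median 2.21). Top2a, a DNA topoisomerase of dividing cells, stood at 0.505 and 0.614 CPM in 7d_WT, 26.3 and 15.1 CPM in 14d_STING-KO and 26.7 to 78.9 CPM elsewhere (5.19 ± 0.45). Mki67 stood at 3.48 and 4.09 against 14.9 and 14.8 CPM (1.97 ± 0.25) and the mitotic kinase Cdk1 at 0.280 and 0.153 against 2.16 and 3.19 CPM (3.60 ± 0.53). In their mean, at 0.59 and 0.60 log2 CPM in 7d_WT and 2.78 and 2.35 in 14d_STING-KO, both groups lay below the other 8 libraries (3.06 to 5.06).

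Ependymal genes of motile cilia were higher in 14d_STING-KO, with 10 of 13 called (median 2.45). Ak7 stood at 3.37 and 0.665 against 18.8 and 14.0 CPM (3.05 ± 0.47) and the axonemal dynein Dnah11 at 2.02 and 0.562 against 10.498 and 7.29 CPM (2.81 ± 0.40). Their mean level was 2.87 and 2.48 log2 CPM in 14d_STING-KO, 1.37 and -0.08 in 7d_WT, all below the other 8 libraries, which reached 3.46. Of 16 choroid plexus genes 3 were called higher, a share near the 23.0% of all genes. They were the channel protein Clic6 (2.70 ± 0.52), the lysophospholipase Enpp2 (1.86 ± 0.39) and Calml4 (2.08 ± 0.68). Without 14d_STING-KO replicate 2 there were also 3, and 10 ependymal genes. Summed over that list the level was 423 and 287 CPM in 7d_WT and 1528 and 758 CPM in 14d_STING-KO, with 471 to 6381 CPM elsewhere. Of 18 myelin genes 6 were called higher (median 0.53), beside 23.0% of all genes. Among them was Ugt8a, which makes galactocerebroside, at 45.8 and 38.3 against 173 and 150.2 CPM (1.94 ± 0.38). Oligodendrocyte precursor genes had 3 of 11 called higher, near that share: Pdgfra (0.81 ± 0.20), Enpp6 (2.24 ± 0.34) and Lhfpl3 (1.24 ± 0.17). For myelin genes the counts higher and lower became 3 and 0 without 7d_WT replicate 2 and 6 and 1 without 14d_STING-KO replicate 2. For precursor genes the counts higher and lower became 3 and 3 without 14d_STING-KO replicate 2.

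Astrocyte lists had few calls, to be read beside the shares of all genes (23.0% higher and 17.6% lower). Homeostatic astrocyte genes had 3 of 16 called higher and 3 lower. The glutamate transporter Slc1a2 stood at 1899.7 and 2290.2 against 4553 and 3907 CPM (1.01 ± 0.25), and the GABA transporter Slc6a11 at 317 and 264 against 60.2 and 73.6 CPM (-2.12 ± 0.17). Agt, which encodes angiotensinogen and marks astrocytes of thalamus and hypothalamus, stood at 84.4 and 58.4 CPM in 7d_WT and 5.94 and 4.95 CPM in 14d_STING-KO (-3.71 ± 0.40). Of 10 regional astrocyte genes 1 was called higher and 3 lower. Reactive astrocyte genes had 4 of 15 higher and 1 lower. Without 14d_STING-KO replicate 2 the counts higher and lower were 3 and 4 for homeostatic, 1 and 4 for regional and 4 and 1 for reactive genes. Vim, an intermediate filament of reactive astrocytes, stood at 47.4 and 31.3 against 132 and 202 CPM (2.09 ± 0.39), and its lowest value in the other 8 libraries was 665 CPM. Lgals1, a lectin, had the reverse order, at 11.6 and 8.33 against 0.900 and 1.95 CPM (-2.81 ± 0.49). Among vascular lists, 5 of 16 endothelial and 2 of 12 pericyte genes were called higher, beside 23.0% of all genes. The medians of these 2 lists were 0.42 and 0.08, against 0.11 over all genes. The endothelial calls included Adgrl4 (1.48 ± 0.26) and the organic anion transporter Slco1a4 (0.99 ± 0.18). The pericyte calls were Abcc9 (1.30 ± 0.25) and Rgs5 (0.84 ± 0.24). Fibroblast and meningeal genes had 1 of 12 higher and 2 lower. For endothelial genes the counts higher and lower became 2 and 0 without 7d_WT replicate 1, 2 and 0 without 7d_WT replicate 2, 3 and 0 without 14d_STING-KO replicate 1 and 2 and 1 without 14d_STING-KO replicate 2. For fibroblast genes the counts higher and lower became 0 and 0 without 7d_WT replicate 1, 1 and 0 without 14d_STING-KO replicate 1 and 1 and 0 without 14d_STING-KO replicate 2. For homeostatic astrocyte genes the counts higher and lower became 2 and 1 without 7d_WT replicate 1. For pericyte genes the counts higher and lower became 1 and 0 without 7d_WT replicate 1 and 1 and 1 without 14d_STING-KO replicate 2. Of 5 tested erythrocyte genes 2 were called higher, and none without 7d_WT replicate 1, 7d_WT replicate 2 or 14d_STING-KO replicate 1; Hba-a2, a near-copy of Hba-a1 whose reads the counting could split, stood at 3.59 and 7.21 against 35.6 and 9.51 CPM.

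Metabolic and housekeeping groups differed by smaller medians. Of 15 glycolysis genes 12 were called lower (median -0.63), such as the hexokinase Hk1, at 351 and 402 against 103 and 117 CPM (-1.78 ± 0.16), and Aldoa, at 1592 and 1705 against 778 and 738 CPM (-1.12 ± 0.16). Gapdh changed by -1.87 ± 0.15, but it has many processed copies and its counts are uncertain. Nuclear respiratory chain genes had 6 of 20 lower and 1 higher, with Ndufb8 at -2.21 ± 0.21 and Cox6b1 at -1.79 ± 0.21. Cytosolic ribosomal protein genes, which also have many copies, had 20 of 79 higher and 14 lower, near the shares of all genes (23.0% and 17.6%), with Rps28 at -2.57 ± 0.26 and Rpl26 at 1.41 ± 0.21. For ribosomal genes the counts higher and lower became 8 and 9 without 7d_WT replicate 1, 8 and 8 without 7d_WT replicate 2 and 9 and 23 without 14d_STING-KO replicate 1. For respiratory chain genes the counts higher and lower became 0 and 4 without 7d_WT replicate 2 and 1 and 12 without 14d_STING-KO replicate 1. Mitochondrially encoded genes held 4.02% and 4.14% of the counts in 7d_WT and 4.01% and 6.16% in 14d_STING-KO. Of the 13, the subunit mt-Nd3 was the 1 called, at 31.6 and 29.9 against 2.94 and 5.01 CPM (-2.96 ± 0.49). For these genes the counts higher and lower became 3 and 1 without 14d_STING-KO replicate 1 and 0 and 6 without 14d_STING-KO replicate 2. Exon length moved with the change: the median was -0.07 in the fifth of genes with the shortest exon length and 0.30 in the fifth with the longest, and the part of this in the gene results was not tested. Stress-response genes had 5 of 12 called lower and 2 higher, with Atf4, the master factor of that response, at 109.9 and 113 against 29.8 and 35.0 CPM (-1.78 ± 0.18). Antioxidant genes had 4 of 11 called higher, with Gclm at 1.07 ± 0.14. Cholesterol synthesis had 3 of 17 lower, near the 17.6% of all genes, with Mvd at -1.42 ± 0.21. Clock genes had 6 of 15 higher, with Npas2, a partner of the clock factor Bmal1 in forebrain, at 18.8 and 22.5 against 82.5 and 76.3 CPM (1.94 ± 0.23). The nuclear RNA Miat stood at 765 and 899 against 58.5 and 75.3 CPM (-3.64 ± 0.35), and Meg3 at -0.75 ± 0.28 and Rian at 0.84 ± 0.24 had opposite signs; 2 of 8 such RNAs were called lower and 1 higher. For these RNAs the counts higher and lower became 0 and 1 without 7d_WT replicate 1, 0 and 1 without 7d_WT replicate 2 and 0 and 1 without 14d_STING-KO replicate 1. Of 9 tested regional transcription factors 3 were called higher and 2 lower. The 6 tested sex-linked genes were all called higher, by 0.43 to 1.25 (3 of them without 7d_WT replicate 1), and Y-linked genes were present and Xist at most 0.579 CPM in all 12 libraries.

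Further large differences lay mostly outside the lists. Sstr3, a somatostatin receptor of neuronal cilia, stood at 34.4 and 39.8 CPM in 7d_WT and 0.240 and 0.456 CPM in 14d_STING-KO (-6.73 ± 0.43), and the adrenergic receptor Adra1d at 57.9 and 70.2 against 0.420 and 1.37 CPM (-6.18 ± 0.55). The matrix protein Smoc2 stood at 32.9 and 42.7 against 0.180 and 0.716 CPM (-6.41 ± 0.63) and the transcriptional regulator Prdm8 at 51.3 and 55.0 against 0.660 and 0.716 CPM (-6.26 ± 0.52). Rtn4rl2, a Nogo receptor homolog, changed by -5.94 ± 0.52. Among higher genes, Ptprv, annotated as a processed transcript, stood at 0.673 and 0.511 against 36.2 and 52.0 CPM (6.21 ± 0.47), and Gm49702, an unconfirmed locus in the annotation, at 0.617 and 0.818 against 39.8 and 38.5 CPM (5.75 ± 0.45). Both groups lay outside the range of the other 8 libraries, on opposite sides, for Sstr3, Prdm8, Rtn4rl2 and Ptprv.

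Whether the regional genes also moved outside the pair was examined in 2 comparisons that share no library with the pair or with each other. The genes and lists were chosen with earlier results of these data known, and all 12 libraries share 1 fit. The low immune transcripts that marked the pair are also low relative to the other 8 libraries. P-values from these comparisons therefore describe these libraries and are not an independent check. In 14d_cGAS-KO against 7d_cGAS-KO, a comparison of times within 1 genotype, edgeR called 6022 of 19822 genes (30.4%), 13.4% higher and 17.0% lower. All 30 pan-striatal genes rose there (26 to 30 when 1 library was left out), as did 7 of 9 direct-pathway genes, with 1 that fell, and 4 of 5 indirect-pathway genes. Drd1 rose by 3.46 ± 0.69 (edgeR adjusted p = 0.00376), Drd2 by 4.10 ± 0.74 (edgeR adjusted p = 0.00226) and Rxrg by 4.17 ± 0.26 (edgeR adjusted p = 4.85e-06). Each held in all 4 fits with 1 library fewer. Adora2a did not pass, at 2.16 ± 0.80 (edgeR adjusted p = 0.062). In 14d_WT against 7d_STING-KO, where time and genotype both differ, 6370 genes were called (32.1%), 14.6% higher and 17.6% lower, and 23 of the 30 pan-striatal genes rose and none fell. The count was 14 without 14d_WT replicate 1, 17 without its replicate 2, 11 without 7d_STING-KO replicate 1 and 20 without its replicate 2. Of the direct-pathway genes 5 of 9 rose there (0 to 4 with 1 library left out, and 0 without 7d_STING-KO replicate 1), and of the indirect-pathway genes 3 of 5 (2 to 4). Penk and Adora2a did not pass in it, at 0.64 ± 0.56 and 1.44 ± 0.81 (edgeR adjusted p = 0.403 and 0.194). Drd1 rose by 2.35 ± 0.67 (edgeR adjusted p = 0.0219), a call lost without 14d_WT replicate 1, 14d_WT replicate 2 or 7d_STING-KO replicate 1 (edgeR adjusted p up to 0.104). Rxrg rose by 2.85 ± 0.26 (edgeR adjusted p = 5.53e-05) and held in all 4 such fits.

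The glutamatergic neuron lists gave fewer calls in these 2 comparisons than in the pair. Of the 17 thalamic genes 5 fell in the cGAS-KO comparison and 10 in the other, and none rose in either, although 2 rose in the second without 7d_STING-KO replicate 2. Slc17a6 changed by -0.98 ± 0.56 (edgeR adjusted p = 0.21) and fell in the other comparison, with a change of -2.500 ± 0.48 (edgeR adjusted p = 0.003). Of 15 hippocampal genes 2 rose and 2 fell in the first and 2 rose and 3 fell in the second, and of 24 cortical genes 4 rose and 6 fell in the first and 9 rose and 1 fell in the second. Slc17a7 passed in neither, at -0.53 ± 0.60 (edgeR adjusted p = 0.544) and 0.90 ± 0.61 (edgeR adjusted p = 0.279). Neurod6 changed by 0.08 ± 0.43 (edgeR adjusted p = 0.913) and rose by 2.81 ± 0.49 (edgeR adjusted p = 0.00196). Grm2, among the widest differences of the pair, passed in neither, at -0.21 ± 0.22 and -0.28 ± 0.21 (edgeR adjusted p = 0.513 and 0.324). Of the 30 pan-neuronal genes, 6 rose and none fell in the first and 4 rose and 3 fell in the second. Left-out libraries moved these small counts: from 1 to 4 cortical genes fell in the first and 4 to 9 rose in the second, 0 to 1 hippocampal genes rose in the first, and 0 to 9 pan-neuronal genes rose in the first and 1 to 7 in the second. Of 16 cell cycle genes 14 fell in the first and 13 in the second, and of 18 disease-associated microglia genes 11 fell in each. Whether any of these changes differs in size from that of the pair was not tested.

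**Figure D5:**
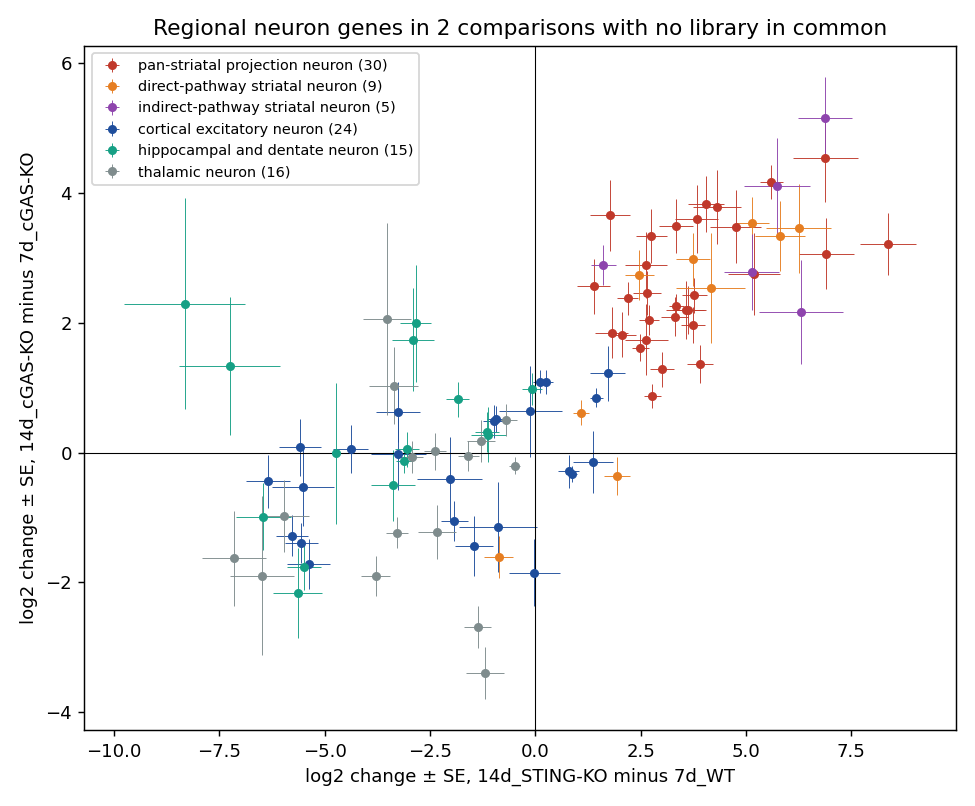
Log2 change ± SE of 14d_STING-KO minus 7d_WT (x axis) and of 14d_cGAS-KO minus 7d_cGAS-KO (y axis) for the tested genes of 6 regional neuron lists with a count in both groups of the pair; no library enters both axes. Pan-striatal genes all lie in the upper right, and hippocampal, thalamic and cortical genes spread over both signs of the y axis.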

How the data were processed

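Poly(A)-selected RNA of 12 mouse libraries, 2 in each of 6 groups, was sequenced as paired ends. The authors deposited raw counts per gene, made with HISAT2 and featureCounts on mm10, per the submitters' processing notes; versions, annotation release and strand setting are not given in the sources used here. Without strand, overlapping and antisense genes cannot be told apart, and genes with many near-identical copies (Gapdh, ribosomal proteins, haemoglobins) are uncertain. Gene names came from the reference annotation for 54495 of 54532 IDs.

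Genes were kept by edgeR's filterByExpr (minimum count 10, minimum total 15), leaving 19822. All 12 libraries were fitted together with TMM scaling, the group as factor and edgeR 4.0.16's robust quasi-likelihood test in R 4.3.3, with Benjamini-Hochberg adjustment over all tested genes and a threshold of 0.05. The shared fit had 6 residual degrees of freedom. Simulated counts with known changes were put through the same fit. They gave every gene the same spread and changed few genes, unlike these data, so they do not show how the fit errs here. Library totals ran from 15956242 to 22126213 counts. CPM are counts scaled by the TMM-normalised library total, and levels per kb divide by exon length.

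The pair, the genes and the 54 lists were chosen with earlier results of these data known, so the pair carries no p-value. The ribosomal list was added later than the other lists. The genes named were Cgas and Tmem173, tissue markers, the 15 largest changes in each direction among called, non-overlapping genes with an average log2 CPM of at least 3, up to 4 members of each list by smallest p, the 2 most changed in each direction in neuronal lists, and the 6 widest gaps between libraries of each group; some of these genes are not reported here. Alternatives were other scaling, no filter, a stricter filter, the replicate number as a block, a legacy fit, mitochondrially encoded genes left out, the 4 libraries alone, DESeq2 1.42.0 and leaving out each library.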

Additional observations from a re-analysis of the deposited data

How the results depend on the processing

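Between 14d_STING-KO and 7d_WT, 8051 genes were called, and 6620 to 8087 under the alternatives that kept all 4 libraries (other scaling, filters, DESeq2, the legacy fit, the replicate block, the 4 libraries alone). Leaving out 1 library gave 4929 to 8116 calls, with 5157 without 7d_WT replicate 1 and 4929 without its replicate 2; the library left alone was assumed to vary like the other groups. In 14d_cGAS-KO against 7d_cGAS-KO the count of 6022 became 5261 to 6084 under the alternatives and 2968 to 4735 with 1 library left out, 3423 without 14d_cGAS-KO replicate 1 and 2968 without 7d_cGAS-KO replicate 1. In 14d_WT against 7d_STING-KO the count of 6370 became 5554 to 6448 and 3621 to 4617, with 3621 without 14d_WT replicate 2, 3685 without 7d_STING-KO replicate 1 and 3903 without its replicate 2. Of 244 genes named by the rule, none turned direction with a call on either side, and 2 to 33 lost their call in the pair, depending on the alternative. A value was missing for 3 of them under the stricter filter and in the fit of 4 libraries, and for mt-Nd3 with mitochondrially encoded genes left out. That last setting lowered the share of higher genes among those called from 56.7% to 47.7%, and it turned the sign of 4 list medians, those of pericyte, stress-response, regional transcription factor and ribosomal genes, all within 0.1 of 0. Replicate numbers did not pair the libraries: the correlation of same-numbered deviations ran from -0.092 to 0.196 over the pairs of groups and was -0.028 for this pair. With the replicate block, 8087 genes were called in the pair, 6084 in the cGAS-KO comparison and 6448 in the other. With 2 libraries a group, the gap of 890 genes between the 14d_STING-KO libraries limits what its immune values can show.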
